A study of Pardosa pseudoannulata with 16 samples.

Results

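Pardosa pseudoannulata, a wolf spider, preys on insects of rice paddies, and the study concerned its response to the fertiliser urea. RNA of whole spiders was sequenced in 4 groups named UL, UM, UH and Ck, with n = 4 libraries each. The clusters described here are sequences whose levels moved together across these 16 libraries. A few of them ran between near absence and very high abundance, and most were of lower abundance or narrower range. The members were chosen by their measured values: log2(FPKM + 1) had to have a Pearson r over 0.9 with Cluster-9253.45104 over all 16 libraries. Only clusters at 1 FPKM or more in 4 or more libraries were considered (36003 of 136360 listed). The rule gave 74 clusters, that one included, and all 74 passed the filter on low values because it is part of the rule. FPKM is the number of fragments per kilobase, scaled to a library's mapped fragments, so levels of different clusters are compared per length throughout. Because the rule used every library, the shared pattern of the 74 clusters is how they were chosen and is not a finding.

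Field-caught adults were kept for 30 days on soil holding urea at 0, 200 or 400 mg/kg, per the design text. It does not tie these 3 concentrations to the 4 groups, and the labels give Ck the same treatment entry as the others. No concentration was assigned to a group, and Ck serves as the reference from its name alone, a common short form for a control. Nothing in the labels says whether a library came from 1 spider or a pool, or gives the sex, weight or feeding state of the animals. The spread between replicates may therefore be technical or biological.

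A whole-spider library pools every organ of the animal. In spiders, venom glands, silk glands, the digestive gland and ovaries are each known to make a few transcripts in very large amounts. The files give the clusters no gene names, and none were taken from elsewhere. No gene, organ or function is therefore given to any of the 74 clusters, and 1 transcript can be split over several clusters. In bulk RNA, fewer cells of a type and less RNA per cell cannot be told apart.

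Cluster-9253.45104 itself (1482 bases) had 13272.09, 13023.49, 24070.78 and 16284.44 FPKM in UL replicates 1 to 4. In UM it had 13371.53, 24415.68, 67.64 and 1335.63 FPKM, and in UH 9920.09, 27193.49, 1282.25 and 15.08 FPKM. The Ck libraries had 38.83, 9612.4, 19403.55 and 20485.46 FPKM. Its highest and lowest values, in UH replicates 2 and 4, thus lay in the same group and differed 1800-fold. In 11 libraries it stood at over 5000 FPKM and ranked between 2 and 4 among all clusters by FPKM. In UM replicate 4 and UH replicate 3 it ranked 83 and 80. In UM replicate 3, UH replicate 4 and Ck replicate 1 it was under 100 FPKM and ranked 1107, 4537 and 1806. Even there it was detected well above single fragments: an estimated 1360, 356 and 938 fragments, at library depths estimated from the step between low values at 16.5 to 20.64 M (mega) fragments.

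The 74 clusters together made up a sizeable part of most libraries. They held 3.61, 4.74, 7.48 and 5.41% of the FPKM sum in UL replicates 1 to 4. The shares were 4.22, 6.79, 0.0357 and 0.516% in UM, and 2.85, 7.85, 0.49 and 0.0226% in UH. Ck libraries held 0.0271, 3.41, 6.8 and 6.61%. The mean share was 5.31% ± 1.63 in UL, 2.89% ± 3.2 in UM, 2.8% ± 3.59 in UH and 4.21% ± 3.2 in Ck (SD, n = 4 each). All 4 UL libraries were high, while UM, UH and Ck each held 1 library between 0.0226 and 0.0357% beside high ones. The values of UL, UM and UH all overlapped those of Ck. Since single libraries set these means, the mean share was 1.59% in UM without replicate 2 and 1.12% in UH without replicate 2.

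**Figure D1:**
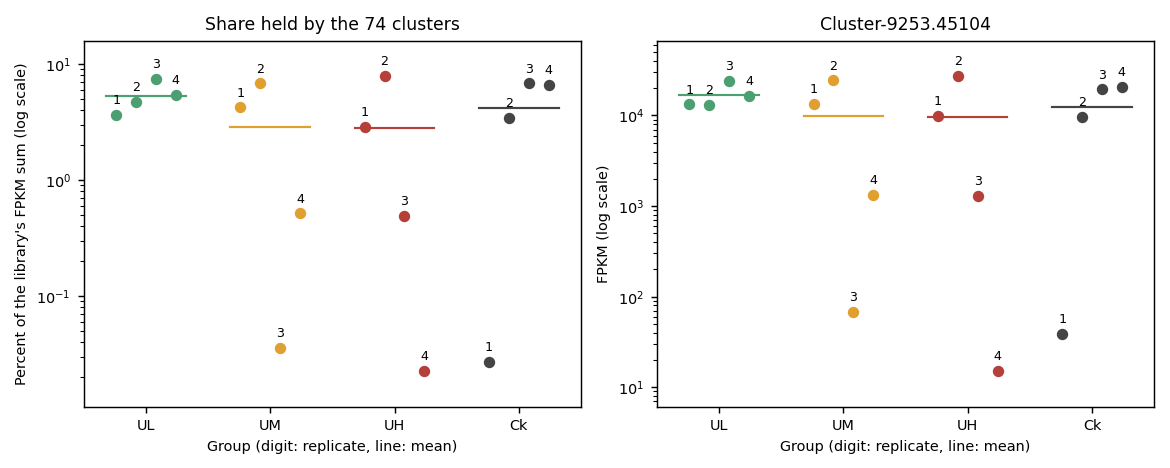
Share of the FPKM sum held by the 74 clusters (left, percent) and FPKM of Cluster-9253.45104 (right), both on log scales, for each library by group; digits give the replicate and lines the group mean. The 4 UL libraries lie between 3.61 and 7.48%, and UM, UH and Ck each hold 1 library between 0.0226 and 0.0357%.

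Of the 3 libraries that held least, UM replicate 3 was also the shallowest of the 16, and the other 2 were not shallow. UM replicate 3, UH replicate 4 and Ck replicate 1 had an estimated 16.5, 19.63 and 19.99 M fragments, and 78216, 77933 and 79811 clusters listed above 0. Over all 16 libraries these counts ran between 76712 and 97015. The cluster that was first in every library, Cluster-9253.47764, held 14.7, 8.8 and 7.35% of the FPKM sum in those 3 libraries, against 6.22 to 15.9% over all 16. Its r with Cluster-9253.45104 was -0.17.

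A few clusters carried nearly all of this abundance. In the 11 libraries with over 5000 FPKM of Cluster-9253.45104, that cluster alone held 38.5 to 44.0% of the summed FPKM of the 74. The 10 clusters with the highest values in any library held 90.0 to 92.2% there. By their highest value in any library, 12 clusters reached 1000 FPKM or more, 8 reached 100 to 1000, 38 reached 10 to 100, 14 reached 3 to 10 and 2 stayed under 3. The 2 lowest were Cluster-9253.69209, at 1.46 FPKM in its highest library, and Cluster-9253.28900, at 2.76 FPKM. In the 3 libraries where Cluster-9253.45104 was under 100 FPKM, the same 10 clusters held only 22.2 to 51.2% of the summed FPKM. They were not always the 10 highest there, and no cluster of the 74 reached 100 FPKM. Between 31 and 35 of the 74 were still at 1 FPKM or more in those libraries, and 7 to 11 were listed at 0.

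The second most abundant member, Cluster-9253.45355 (883 bases), followed the first with a nearly fixed ratio. It had 5737.39, 5843.55, 11027.03 and 7289.11 FPKM in UL, and 5833.03, 9243.65, 29.64 and 551.65 FPKM in UM. In UH it had 4292.58, 12157, 515.43 and 7.36 FPKM, against 20.72, 4297.53, 9728.41 and 9566.55 FPKM in Ck. Per 1000 FPKM of Cluster-9253.45104 this came to 379 to 534 FPKM in all 16 libraries, although the levels themselves differed 1650-fold. The ratio was 438, 488 and 534 in the libraries of lowest level, UM replicate 3, UH replicate 4 and Ck replicate 1. It was the most similar cluster to Cluster-9253.45104 over the 16 libraries (r = 0.9995).

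Cluster-9253.53687 (1219 bases) kept its proportion in the same way, with 95.5 to 131 FPKM per 1000 FPKM of Cluster-9253.45104 in all 16 libraries. It had 1399.99, 1585.78, 2524.86 and 1747.02 FPKM in UL and 1315.98, 2550.59, 6.49 and 129.37 FPKM in UM. Its values were 1055.26, 2875.21, 131.7 and 1.44 FPKM in UH, against 5.09, 1147.44, 2506.3 and 2607.15 FPKM in Ck. Cluster-9253.34580 (1568 bases) had 43.4 to 62.7 per 1000 in the 15 libraries where it was at 1 FPKM or more, between 2.11 FPKM in Ck replicate 1 and 1419.74 FPKM in UH replicate 2. In UH replicate 4 it had 0.68 FPKM.

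Cluster-9253.35281 (1018 bases) and Cluster-9253.43730 (4914 bases) held their proportion less closely at low levels. Cluster-9253.35281 had 137 to 306 FPKM per 1000, with the highest ratio in UM replicate 3, where its level was 20.67 FPKM against 4215.01 FPKM in its highest library, UH replicate 2. Cluster-9253.43730 had 51.6 to 65.3 per 1000 in 13 libraries and 85.9, 224 and 109 in UM replicate 3, UH replicate 4 and Ck replicate 1. Its level in UH replicate 4 was 3.38 FPKM, against 1403.71 FPKM in UH replicate 2. Cluster-9253.67775 (347 bases) had 131 to 433 per 1000 and reached 5152.52 FPKM in UH replicate 2. Cluster-9253.29639 (500 bases) had 46.1 to 105 per 1000 and reached 2192.11 FPKM in the same library. On short clusters the deposited FPKM depends strongly on the mean fragment length, estimated at 260 to 294 bases, and more so the closer the cluster is to it. The same caution holds for Cluster-9253.68402 (387 bases) and Cluster-9253.29603 (442 bases), described below.

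Over the libraries where both clusters were at 1 FPKM or more, the SD of the log2 ratio to Cluster-9253.45104 was smallest for Cluster-9253.45355 (0.12, 16 libraries), Cluster-9253.34580 (0.13, 15 libraries) and Cluster-9253.68501 (0.13, 13 libraries). For faint clusters this measure leaves out the libraries of lowest level, so it does not compare members of different abundance. The last, of 3572 bases, reached only 29.18 FPKM. It had 15.77, 14.35, 27.09 and 16.74 FPKM in UL, 14.6, 22.26, 0.2 and 1.63 FPKM in UM, and 11.26, 29.18, 1.58 and 0.47 FPKM in UH, against 0.11, 11.95, 21.18 and 20.24 FPKM in Ck. Its ratio was 0.912 to 1.24 per 1000 in 13 libraries, and 2.96, 31.2 and 2.83 in UM replicate 3, UH replicate 4 and Ck replicate 1, where it was under 1 FPKM.

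**Figure D2:**
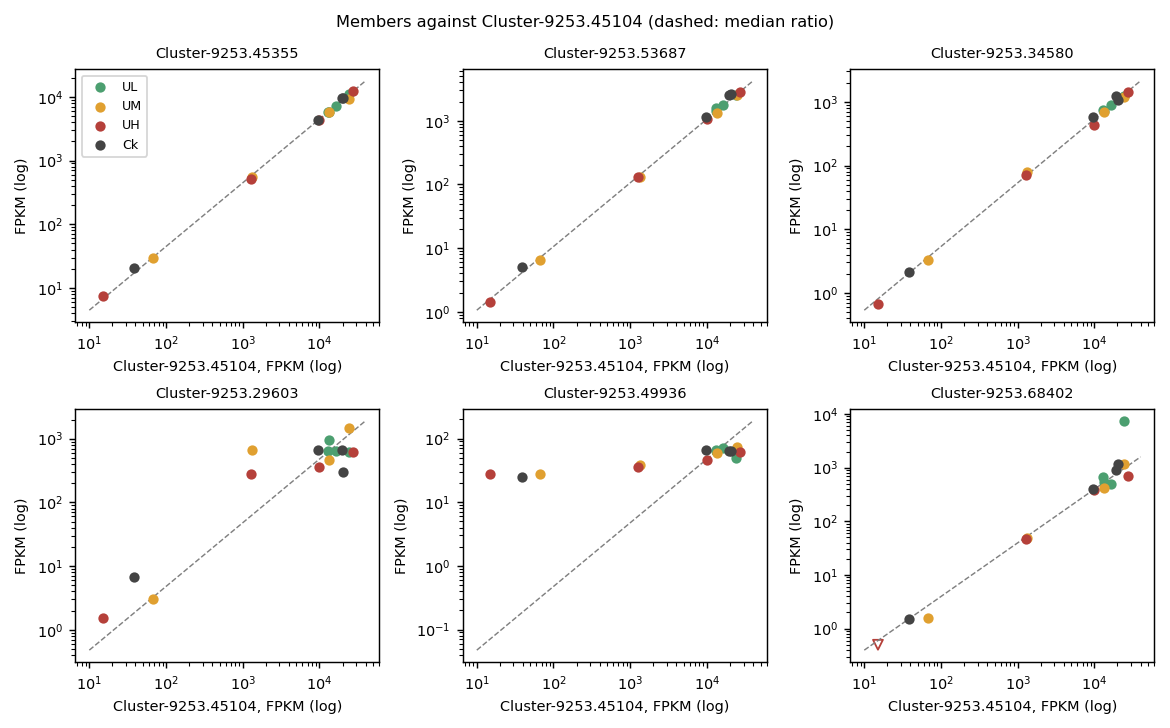
FPKM of 6 members against FPKM of Cluster-9253.45104 on log scales, 1 point per library coloured by group; the dashed line is the median ratio and the open triangle marks a library listed at 0, drawn at 0.5. Cluster-9253.45355 keeps 379 to 534 FPKM per 1000 FPKM, while Cluster-9253.49936 does not go below 24.65 FPKM.

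Some members kept a sizeable part of their highest level in every library. In 16 of the 74 clusters the lowest library stood at over 10% of the highest, and in 4 of them at over 20%. The lowest value in Cluster-9253.49936 (3653 bases) was 33.9% of its highest. It had 66.9, 62.8, 50.05 and 71.18 FPKM in UL, 59.89, 72.79, 27.88 and 37.69 FPKM in UM, and 46.37, 61.49, 35.41 and 27.45 FPKM in UH, against 24.65, 66.16, 62.93 and 62.67 FPKM in Ck. Its 5 lowest libraries were those of Cluster-9253.45104, but the highest was 2.95-fold above the lowest. Cluster-9253.51178 (2374 bases) was alike, between 23.66 FPKM in Ck replicate 1 and 67.68 FPKM in UL replicate 4. Cluster-9253.44220 (2279 bases) ran between 4.35 FPKM in Ck replicate 1 and 16.93 FPKM in UM replicate 1.

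These 16 clusters had highest values of 3.95 to 72.79 FPKM, and their fold range was 2.86 to 9.49. They included the longest member, Cluster-9253.51630 (8667 bases), with 1.92 FPKM in Ck replicate 1 and 12.3 FPKM in UL replicate 2. The median length of the 16 was 3024.5 bases. In 42 of the 74 clusters the lowest library stood at under 1% of the highest, and the median length of those was 1525 bases. All 12 clusters that reached 1000 FPKM were among these 42. The shortest member, Cluster-9253.41358 (339 bases), was one of them, between 0 in Ck replicate 1 and 78.32 FPKM in Ck replicate 3.

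Over the libraries of high level alone, r was lower for most members. Within the 11 libraries that had over 5000 FPKM of Cluster-9253.45104, that cluster ran between 9612.4 and 27193.49 FPKM. Over all libraries it ran between 15.08 and 27193.49 FPKM, and a narrower range by itself tends to lower r. Within the 11, r with that cluster was over 0.9 for 23 of the 74, and the median r over all 74 was 0.82, both with the cluster itself counted. The 14 other clusters with r of at least 0.98 over all libraries had r of 0.88 to 0.99 within the 11. The 16 clusters that stayed above 10% of their highest value had r of 0.16 to 0.86 within the 11, with a median of 0.47. In 11 of these 16 the 5 lowest libraries were those of Cluster-9253.45104. These r are descriptions over libraries of 4 groups.

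**Figure D3:**
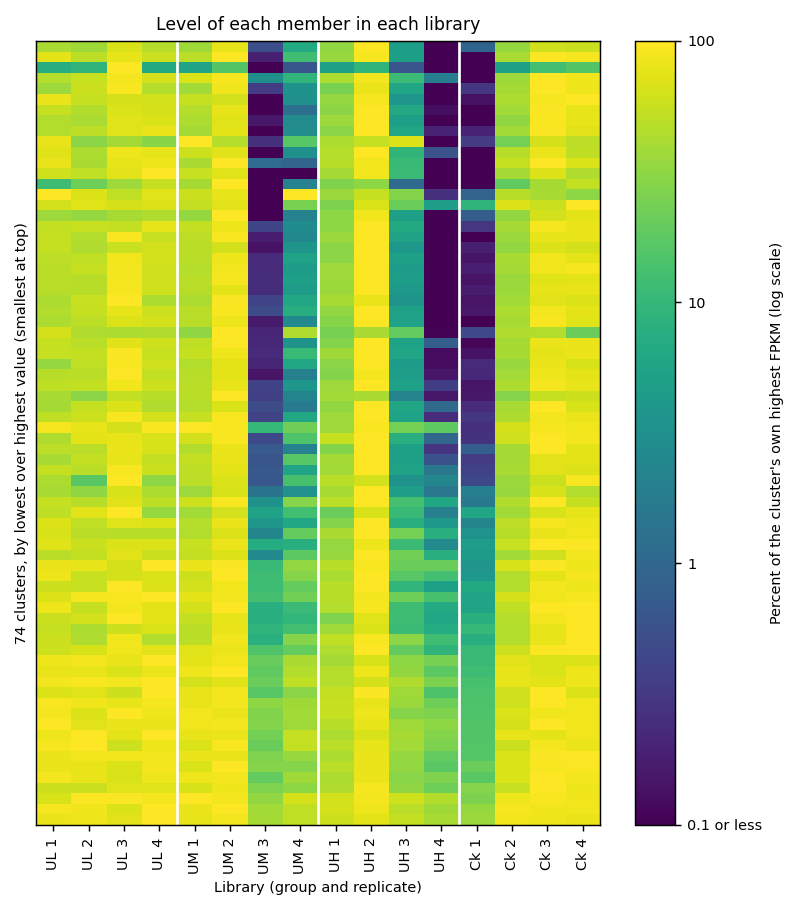
Level of each of the 74 clusters (rows, ordered by the lowest over the highest value) in each library (columns, by group and replicate) as percent of the cluster's own highest FPKM, on a log colour scale from 0.1 or less to 100. UM 3, UH 4 and Ck 1 are mostly dark in the upper 42 rows and green in the lowest 16, and UM 4 and UH 3 lie in between.

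The order of libraries was shared widely, but this order and the r among members follow largely from the rule and are no finding. In 70 of the 74 clusters the 3 lowest libraries were UM replicate 3, UH replicate 4 and Ck replicate 1, and in 66 the 5 lowest were these 3 with UM replicate 4 and UH replicate 3. The lowest library was Ck replicate 1 in 32 clusters, UH replicate 4 in 31 and UM replicate 3 in 11. The highest library was UH replicate 2 in 27 and Ck replicate 3 in 11, with the rest spread over 7 other libraries. Among themselves the 74 clusters had r between 0.69 and 1.0, with a median of 0.94 over 2701 pairs.

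Libraries UM replicate 4 and UH replicate 3 divided the set. Cluster-9253.45104 stood in these 2 libraries at 4.91 and 4.72% of its highest value. There, 11 of the 12 clusters that reached 1000 FPKM stood at 0.618 to 10.4%. The low end came from Cluster-9253.68402 alone, at 0.642 and 0.618% of a single high value of 7492.16 FPKM in UL replicate 3. Without that cluster the lowest of the 11 was 3.59%. The exception among the 12 was Cluster-9253.29603 (442 bases), at 44.5 and 19.1%. It had 946.68, 651.61, 624.75 and 644.03 FPKM in UL, 469.14, 1482.02, 3.08 and 660.01 FPKM in UM, and 362.25, 609.82, 282.43 and 1.53 FPKM in UH. In Ck it had 6.79, 658.17, 662.2 and 303.46 FPKM. It was near absent in the same 3 libraries as the others, but not in UM replicate 4, which was among its highest libraries, or in UH replicate 3, which lay just under the 303.46 FPKM of Ck replicate 4. Per 1000 FPKM of Cluster-9253.45104 it had 494 FPKM in UM replicate 4, against 14.8 in Ck replicate 4.

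Cluster-9253.29119 (1053 bases) did the same, with 114.9, 154.87, 0 and 198.96 FPKM in UM and 71.56, 108.61, 55.27 and 0.53 FPKM in UH. It had 200.12, 139.34, 103.3 and 142.01 FPKM in UL, against 1.81, 95.13, 81.77 and 62.08 FPKM in Ck. Its r with Cluster-9253.29603 was 0.99, above its r of 0.90 with Cluster-9253.45104. Within the 11 libraries its r with Cluster-9253.45104 was 0.02. Cluster-9253.73127 (609 bases), named after its values were seen, had 21.84 FPKM in UM replicate 4 and 91.36 FPKM in UH replicate 3, against 131.93 FPKM in its highest library, UM replicate 1.

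Outside the rule, 6 more abundant clusters that were high in UM replicate 4 lay at r of 0.84 to 0.88. Of all clusters that reached 1000 FPKM in a library (236), the lowest library stood at under 1% of the highest in 103, of which 12 were members. Among the other 91, those that passed the filter had r of at most 0.32 with Cluster-9253.45104 apart from these 6. Cluster-9253.54481 (1717 bases), chosen here as the longest of them after its values were seen, had 2763.28, 2796.62, 0.95 and 5173.89 FPKM in UM and 1458.57, 2031.66, 1795.38 and 6.74 FPKM in UH. Its values were 4121.61, 3753.82, 2523.66 and 2648.97 FPKM in UL, against 26.81, 1728.99, 1787.82 and 1120.94 FPKM in Ck. UM replicate 4, at 4.91% of the highest value for Cluster-9253.45104, was the highest library of this cluster. All 6 had r of 0.91 to 0.98 with Cluster-9253.29603. The others of the 6 were Cluster-9253.45287, Cluster-9253.48110, Cluster-9253.58313, Cluster-9253.43671 and Cluster-9253.50649. The last was not near absent in Ck replicate 1. It had 201.33 FPKM there, 9.39% of its highest value, close to its 227.4 FPKM (10.6%) in UH replicate 3.

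**Figure D4:**
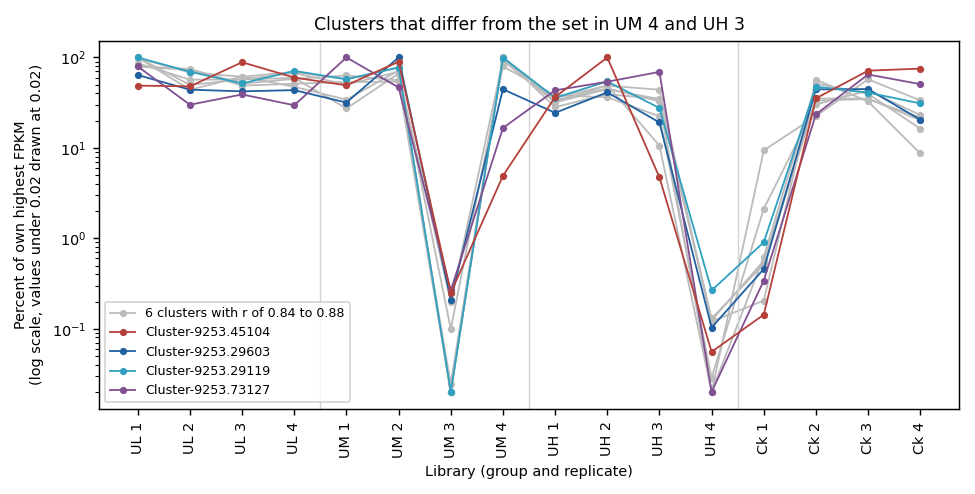
Percent of own highest FPKM in each library (log scale) for Cluster-9253.45104 and for 3 of the members that stayed higher in UM 4 and UH 3. Also drawn are 6 clusters outside the rule, with r of 0.84 to 0.88. Cluster-9253.45104 stands at 4.91% in UM 4, Cluster-9253.29603 at 44.5% and Cluster-9253.29119 at 99.4%, while all are under 10% in UM 3, UH 4 and Ck 1.

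Cluster-9253.68402 (387 bases) departed from the set in 1 library. It had 546.9, 681.45, 7492.16 and 491.61 FPKM in UL, 420.35, 1180.24, 1.58 and 48.1 FPKM in UM, and 385.74, 686.54, 46.28 and 0 FPKM in UH, against 1.54, 395.11, 919.79 and 1172.58 FPKM in Ck. The value in UL replicate 3 was 6.35-fold above the next highest library. It made up 12.0% of the summed FPKM of the 74 clusters there and at most 2.41% in any other library. Without this cluster the share of the FPKM sum in UL replicate 3 was 6.58%.

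Just inside the threshold on r stood Cluster-9253.29119 (0.9013), Cluster-9253.69209 (0.9008) and Cluster-9253.23949 (0.9002), and just outside Cluster-9253.40405 (0.8998), Cluster-9253.39057 (0.8991) and Cluster-9253.47229 (0.8978). The 3 outside ran between 0.53 and 3.64, 3.28 and 9.01, and 1.39 and 7.22 FPKM. Cluster-9253.23949 (1175 bases) ran between 0, listed in UM replicate 3 and UH replicate 4, and 7.86 FPKM. The threshold cuts through a continuous range of r, with 260 clusters over 0.8 and a median of 0.1 over all clusters tested. No cluster had r under -0.9, and the lowest was -0.87. Cluster-9253.48377, around which another co-varying set of these libraries lies, had r of -0.5.

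Length and name were not used by the rule. The 74 clusters were 339 to 8667 bases long with a median of 2193.5 (quartiles 1233.5 and 3927.25), against a median of 1227 (quartiles 532 and 2508) over the clusters tested. The 12 that reached 1000 FPKM had a median of 1118.5 bases. All 74 names began with Cluster-9253, as did 98.3% of the clusters tested. Between Cluster-9253.29520 and Cluster-9253.29693 there were 7 members, which is 10.6% of the 66 tested clusters in that stretch, against 0.206% of all tested. They were Cluster-9253.29520, Cluster-9253.29548, Cluster-9253.29603, Cluster-9253.29632, Cluster-9253.29639, Cluster-9253.29640 and Cluster-9253.29693. The stretch was picked as the one of 200 numbers with the most members, ends set at the outer members. In general neighbouring numbers meant little, with a median r of 0.15 for tested clusters 1 number apart and 0.1 for those 1000 apart.

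There were 3 pairs of members with consecutive numbers, named here for their numbers after the members were known. Cluster-9253.29639 had 14.7 to 25.4 times the FPKM of Cluster-9253.29640 (2046 bases) in the 11 libraries with over 5000 FPKM of Cluster-9253.45104. Cluster-9253.25282 (686 bases) had 1.31 to 2.06 times the FPKM of Cluster-9253.25283 (2682 bases), and Cluster-9253.62964 (1376 bases) 0.0683 to 0.124 times that of Cluster-9253.62965 (3862 bases). The r within the pairs was 0.99, 0.99 and 0.98, against a median of 0.94 over all pairs of members. High r between members follows largely from the rule. Whether such neighbours are parts of 1 transcript was not tested.

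Between the groups, no member passed. In a limma fit of all 36003 clusters and all 16 libraries, 0 of the 74 had an adjusted p under 0.05 in UL against Ck, where 0.0167% of all tested clusters did. In UM against Ck the count was 0 of 74 (0.1% of all tested), and in UH against Ck 0 of 74 (11.2% of all tested). A test for any difference among the 4 groups called 0 of 74, against 18.9% of all tested. No member had an unadjusted p under 0.05 in any of these 4 limma tests, against 16.8, 11.5, 27.5 and 36.3% of all tested in the same order. The lowest Benjamini-Hochberg adjusted p from limma among the 74 was 0.388, 0.745, 0.422 and 0.301. Nothing is read from these counts about the members beyond their values, since the rule favours clusters with large differences between libraries of 1 group.

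The spread within groups was wide. The residual SD of log2(FPKM + 1) had a median of 1.33 over the 74 clusters, with a range of 0.38 to 3.75, against 0.34 over all tested. For Cluster-9253.45104 the log2 difference was 2.20 in UL minus Ck, -0.59 in UM minus Ck and -1.19 in UH minus Ck, each with a standard error of 2.43. A 95% interval reaches 5.29 to either side of these, so that differences of many fold in either direction were not detectable with 4 libraries a group. Over the 74 clusters the median log2 difference was 0.72 in UL, -0.45 in UM and -0.64 in UH, each minus Ck, against 0.10, 0.06 and -0.15 over all tested. Single libraries set these medians. In UL the median was -0.06 without Ck replicate 1. In UM it was 0.20 without UM replicate 3 and -1.25 without Ck replicate 1, and it lay between -1.02 and -0.05 with any other UM or Ck library left out. In UH it was 0.0043 without UH replicate 4 and -1.43 without Ck replicate 1, and it lay between -1.27 and -0.20 with any other UH or Ck library left out. Since the clusters move together, these medians follow 1 pattern rather than 74, and the 3 comparisons share the Ck libraries.

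Values of UL and Ck libraries did not overlap in 3 of the 74 clusters, against 4.96% of all tested. This is near the share over all tested and is not read as a result about the members. The 3 clusters were Cluster-9253.29119, Cluster-9253.50415 and Cluster-9253.52703, all higher in UL, and the last 2 are named here after their values were seen. Cluster-9253.50415 (1326 bases) had 26.16, 27.81, 26 and 29.5 FPKM in UL, against 3.92, 22.93, 22.21 and 24.84 FPKM in Ck. Cluster-9253.52703 (1736 bases) had 18.57, 19.67, 17.96 and 22.31 FPKM in UL, against 2.35, 16.15, 15.27 and 15.37 FPKM in Ck. In UM and UH no member was free of overlap with Ck, against 6.43 and 17.1% of all tested.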

How the data were processed

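The authors deposited FPKM for 136360 sequence clusters in 16 libraries, rounded to 2 decimals, with a length per cluster, per the file headers and the values. The labels' protocols describe poly-A RNA, random primers and Illumina sequencing. For assembly, alignment and counting, no tool is given in the sources used here. A mouse genome build, mm10, stands in the submitters' processing notes, although the organism is a spider. Groups and replicate numbers came from sample titles.

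Depth was estimated from the smallest value above 0 at each length from 500 to 900 bases, whose inverse rises in a straight line with length. Values worth up to 5 fragments then came out whole within 0.15 of a fragment in 99.5 to 99.6%. Fragments in the text are estimates, and no count model was used.

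Correlations, shares and ratios were computed with numpy 2.4.6 and pandas 2.3.3. Groups were compared with limma 3.58.1 (R 4.3.3) on log2(FPKM + 1), with a pseudocount of 1, a mean-variance trend, 12 residual degrees of freedom, two-sided tests and Benjamini-Hochberg adjustment over all 36003 clusters at 0.05. A log2 difference on this scale understates the change of low clusters. Procedures were tested on simulated data. Alternatives were other thresholds on r, rank correlation, other pseudocounts, filters and scaling, array weights, a replicate block, fits of 2 groups alone and leaving out each library.

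The members, the lists and the tests were chosen with earlier results of these data known. Named clusters are Cluster-9253.45104, the 10 with the highest FPKM, the 5 with the highest r, the 3 on either side of the threshold, the longest and shortest, the 3 with the widest and the 3 with the narrowest ratio to Cluster-9253.45104, and the 2 of lowest maximum; any members called between groups would have been added. Clusters named for their place in the numbering, for not overlapping Ck or for their level in UM replicate 4 and UH replicate 3 were picked after names and values were seen. Lists by gene function were not run, since clusters carry no gene names.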

Additional observations from a re-analysis of the deposited data

Results flagged for a closer look

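Among the clusters named and the summed share, 96 sets of 4 libraries were searched for a library far from the other 3, and 6 were found. A rate of about 1 in 20 (4.8) would hold only for independent, normally distributed sets. Most of these clusters were chosen to move together, so the 6 cannot be set against that rate. In UL, Cluster-9253.68402 had 7492.16 FPKM in replicate 3, against 491.61 to 681.45 FPKM in the other 3 libraries. Cluster-9253.29603 had 946.68 FPKM in UL replicate 1, against 624.75 to 651.61 FPKM in the others. The other 4 were all low values of Ck replicate 1, which is also the Ck library with the lowest level of Cluster-9253.45104: 23.66 FPKM for Cluster-9253.51178, 24.65 FPKM for Cluster-9253.49936, 4.35 FPKM for Cluster-9253.44220 and 1.62 FPKM for Cluster-9253.47229, the last outside the rule.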

How the results depend on the processing

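The count of members that passed between groups was 0 in every limma test under every alternative run. With single libraries left out, the lowest and highest count was 0. Fits of 2 groups alone held no test among the 4 groups. Over all tested clusters the alternatives called 0 to 2135 in UL, 5 to 341 in UM and 1171 to 6525 in UH, against Ck. Among the 4 groups they called 3473 to 11992. The number tested was 36003, or 135991 without the filter on low values. Where few were called at all, as in UL and UM under most alternatives, 0 of 74 says little about the members. Nearest to a call was the limma fit without Ck replicate 1. There 12 of 74 had an unadjusted p under 0.05 in UH against Ck, and 5 in the test among 4 groups. Of all 36003 tested, 11124 and 13024 had such a p in the same limma tests, larger shares than among the members. The lowest adjusted p from limma among the members was 0.0983 and 0.0625 there. With the replicate number as a block the count was also 0 in each test, where 5, 12, 3538 and 5853 of all 36003 were called. The numbers share no stated source, deviations of same-numbered libraries had r of -0.28 to 0.26, and 2 of 16 libraries were closest to their own number.

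The number of members depended on the threshold, with 165 at r over 0.85 and 27 at r over 0.95. It was 28 when only the 11 libraries with over 5000 FPKM of Cluster-9253.45104 were used, an alternative chosen after seeing the data, and 23 of those were among the 74. Leaving out single libraries gave 57 to 105. Without UM replicate 3 or without Ck replicate 1 it was 57, of which 54 were among the 74, and without UM replicate 4 it was 105. A rank correlation over 0.9 gave 64 clusters, of which 45 were among the 74.

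With single libraries left out the mean share of the FPKM sum was 4.58 to 5.87% in UL, 1.59 to 3.84% in UM, 1.12 to 3.73% in UH and 3.35 to 5.61% in Ck. At r over 0.85 it was 7.36% in UL. The remaining alternatives moved the shares by less than the SD between replicates. In UM and UH that SD (3.2 and 3.59) was above the mean (2.89 and 2.8%), so no fall there could have exceeded it.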
